A study of Homo sapiens with 8 samples.

Results

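Mitochondrial ribosomal protein genes encode the proteins of the mitoribosome and are transcribed in the nucleus. They were taken as the protein-coding rows of the deposited count table whose symbol begins with MRPL or MRPS, followed by a number and at most one letter from A to C. The rule found 78 genes among 60646 rows, and 77 of them had enough counts to be tested. They were compared between 4 knockout and 4 wild-type samples of MDA-MB-231, a human breast cancer cell line of the triple-negative kind, whose RNA was measured by RNA-seq. The knockout samples are labelled DOT1L/+ and were made with a guide RNA against the first exon of DOT1L, a histone methyltransferase. The wild-type samples carry the unedited DOT1L allele, and no drug was given to either group. Both groups were plated below confluency and harvested on the following day. The labels do not give the number of edited alleles or clones, nor whether replicates 1, 2, 3 and 5 of a group came from separate cultures. The spread behind each p-value is therefore that of these samples and may be technical.

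The mitoribosome translates the few proteins that the mitochondrial genome encodes, all of them subunits of the respiratory chain or of ATP synthase. It has a large subunit, which forms peptide bonds, and a small subunit, which binds and decodes the mRNA. Many of its proteins descend from those of the bacterial ribosome, while others exist only in mitochondria. Its ribosomal RNAs come from the mitochondrial genome, whose genes were not analysed here, so each protein gene has to be matched from the nucleus.

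The libraries held 40103408 to 50031412 counts each. DOT1L, the targeted gene, had 85.3, 78.1, 83.2 and 92.3 CPM (counts scaled to a common effective library size) in knockout replicates 1, 2, 3 and 5. In wild-type replicates 1, 2, 3 and 5 it had 115, 101, 103 and 118 CPM, above every knockout value. Its log2 change, knockout over wild-type as throughout, was -0.37 (edgeR's quasi-likelihood test, adjusted p = 2.83e-05), and a gene-level count includes transcripts of an edited allele. Genes that mark the line were abundant, with VIM, CD44, AXL and KRT18 at 11166 to 198629 counts per library. ESR1 and PGR, the hormone receptors that this line lacks, had 6 to 41 and 1 to 6 counts. PTPRC and PECAM1, markers of leukocytes and endothelium, had 1 to 8 and 10 to 36 counts, and the T cell gene CD3E had 0 or 1. One library stood apart for the mitoribosome genes, since wild-type replicate 3 held the highest wild-type value for 60 of the 77 tested genes. Values without it are given beside the counts over all mitoribosome genes, the subunits, the classes of protein and the neighbourhoods. They are also given for single genes whose call it decided and for some whose change it moved. In RNA from a whole culture, fewer cells expressing a gene and less RNA per cell cannot be told apart.

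Levels between genes were compared in TPM, which divides counts by transcript length (here the union of the exons of each gene). The median gene had 57.8 TPM over the 8 samples, with 60.9 TPM for the large subunit and 54.5 TPM for the small subunit. Over all samples the 3 highest were MRPL51 at 226 TPM, MRPL18 at 202 TPM and MRPS10 at 198 TPM, but the order differed between the groups. In knockout samples MRPL51, MRPL18 and MRPS16 (209 ± 4.05 TPM) led, against MRPS10, MRPL47 (184 ± 4.85 TPM) and MRPL51 in wild-type samples, where the means of MRPL47 and MRPL51 lay within 1 SD of each other and MRPL18 came 6th. MRPS10, a protein of the head of the small subunit, had 201 ± 4.45 TPM in knockout and 196 ± 5.23 TPM in wild-type samples (SD, n = 4 each). MRPL18 had 229.8 ± 6.30 TPM in knockout and 173 ± 4.19 TPM in wild-type samples, and MRPL51 had 269 ± 8.81 TPM in knockout and 184 ± 4.65 TPM in wild-type samples. The knockout and wild-type values of the pair MRPL18 and MRPL51 lay further apart than their SDs, while those of MRPS10 did not.

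At the low end, MRPL53, a protein of the stalk region, was too low to test. It had 5, 8, 1 and 0 counts in knockout replicates 1, 2, 3 and 5, and 3, 1, 6 and 2 counts in wild-type replicates 1, 2, 3 and 5. An exon of CCDC142 on the same strand covers 45.2% of its exonic length, so reads there may have been left unassigned. MRPS24, which forms part of the mRNA entry site, had 2.74 ± 0.527 TPM in knockout and 3.21 ± 0.347 TPM in wild-type samples. The readthrough gene URGCP-MRPS24 covers 23.2% of it, and its fitted log2 change of -0.31 did not pass (edgeR's quasi-likelihood test, adjusted p = 0.0884). MRPL23, at the exit of the peptide tunnel, had 5.67 ± 0.704 TPM in knockout and 7.43 ± 0.278 TPM in wild-type samples and was tested below.

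Mitoribosome genes changed in both directions and mostly by little. In knockout cells 13 of 77 rose, 25 fell and 39 did not pass the test (edgeR's quasi-likelihood test with Benjamini-Hochberg adjusted p below 0.05 over all 19877 tested genes). Over all tested genes 47.6% were called, 23.9% higher and 23.6% lower. Among tested protein-coding genes, the kind to which all mitoribosome genes belong, 27.5% were higher and 29.2% lower. The share of mitoribosome genes called lower, 32.5%, was thus close to that of protein-coding genes, and the share called higher, 16.9%, was below both backgrounds. The median log2 change was -0.07 with quartiles of -0.23 and 0.06, beside 0.00 for all tested genes and -0.00 for tested protein-coding genes. The median size of a change, regardless of sign, was 0.13, against 0.24 for all tested genes, and 7 genes moved by more than 0.5. Knockout and wild-type values did not overlap for 34 of the 77 genes, beside 43.4% of all tested genes. The rises were the less stable calls. Their count was 8 without knockout replicate 1 and 8 without knockout replicate 2, then 7 without wild-type replicate 2 and 6 without wild-type replicate 5, while the count of falls stayed between 23 and 27 whichever sample was left out. Without wild-type replicate 3 there were 15 rises and 23 falls, with a median of -0.04. Scaling by library totals gave 17 rises and 22 falls, with a median of -0.00 for mitoribosome genes and 0.07 for all tested genes.

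**Figure D1:**
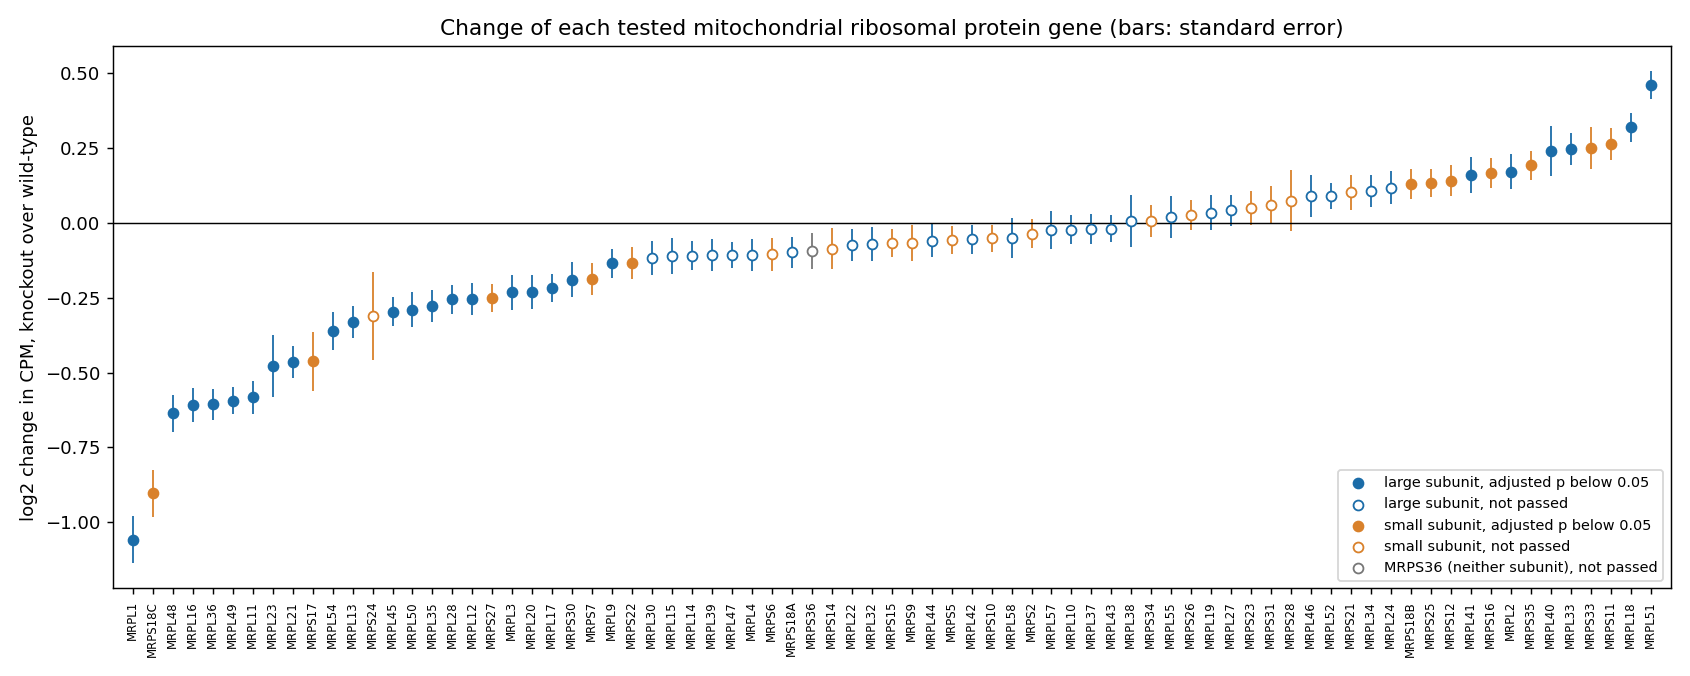
Each point is the log2 change (knockout over wild-type, vertical axis) of 1 of the 77 tested mitochondrial ribosomal protein genes, ordered from the largest fall to the largest rise, with its standard error as a bar; filled points passed the test and colours mark the subunit. The changes run from -1.06 for MRPL1 to 0.46 for MRPL51, with most genes close to 0 and a separate lower tail of 7 genes below -0.5.

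The largest fall was that of MRPL1 (uL1m), which forms the mobile stalk beside the site where spent tRNA leaves. MRPL1 (ENSG00000169288, chr4:77862520-77952790, plus strand, GRCh38) had 15.4, 18.4, 16.9 and 19.7 CPM in knockout replicates 1, 2, 3 and 5. It had 32.8, 37.2, 41.5 and 35.0 CPM in wild-type replicates 1, 2, 3 and 5. All 4 knockout samples lay below all 4 wild-type samples, and the highest knockout value was well under the lowest wild-type one. The log2 change was -1.06 (SE 0.08, edgeR adjusted p = 5.35e-09).

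MRPS18C (bS18m, ENSG00000163319, chr4:83455932-83469735, plus strand) came next and was the largest fall in the small subunit. It is the family member counted as the counterpart of a protein of the bacterial small subunit. Its knockout samples had 9.61, 12.4, 11.2 and 12.3 CPM, and its wild-type samples had 20.1, 20.6, 22.8 and 21.5 CPM. The groups did not overlap, and the log2 change was -0.90 (SE 0.08, edgeR adjusted p = 4.61e-09). On the opposite strand, exons of ABRAXAS1 cover 40.2% of its exonic length, and the strand setting of the counting is not given in the sources used here.

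The other genes of the MRPS18 family were not called lower. MRPS18A, whose protein (mL66) sits in the large subunit despite its name, had 39.8 ± 1.93 CPM in knockout and 42.6 ± 1.58 CPM in wild-type samples. Its log2 change of -0.10 did not pass (edgeR adjusted p = 0.124). MRPS18B, whose protein (mS40) belongs to the small subunit, had 105 ± 4.16 CPM in knockout and 96.1 ± 5.99 CPM in wild-type samples. It rose by 0.13 on the log2 scale (edgeR adjusted p = 0.0413), a call that was lost without knockout replicate 1, 2 or 3 or wild-type replicate 1, 2 or 5 (adjusted p from 0.0623 to 0.184). It was also lost without the filter on low counts (adjusted p = 0.0752), with DESeq2 (adjusted p = 0.0517) and relative to its neighbours. The differences between the 3 family members were not tested.

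A group of 4 large-subunit genes fell by similar amounts. MRPL48 (mL48, ENSG00000175581, chr11:73787316-73865133), a protein of the central protuberance, had 19.4, 20.3, 17.9 and 21.1 CPM in knockout samples, against 30.1, 31.5, 32.2 and 28.6 CPM in wild-type samples. MRPL16 (uL16m, ENSG00000166902, chr11:59806135-59810872) lies near the peptidyl transferase centre and had 28.5, 26.7, 27.2 and 28.0 CPM in knockout samples, against 42.5, 38.9, 45.8 and 41.0 CPM in wild-type samples. MRPL36 (bL36m, ENSG00000171421, chr5:1798386-1801366), one of the smallest ribosomal proteins, had 24.4, 23.7, 23.1 and 23.1 CPM in knockout samples, against 35.0, 35.2, 36.7 and 36.7 CPM in wild-type samples. In each of these genes every knockout value lay below every wild-type value. MRPL49 (mL49, ENSG00000149792, chr11:65122183-65127371), a mitochondrion-specific protein, had 74.0, 70.0, 73.2 and 67.2 CPM in knockout samples, against 109, 107, 108 and 105 CPM in wild-type samples. The log2 changes were -0.64 for MRPL48, -0.61 for MRPL16, -0.61 for MRPL36 and -0.59 for MRPL49, with edgeR adjusted p between 6.4e-10 and 2.67e-08.

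MRPL11 (uL11m), the protein at the base of the stalk that recruits elongation factors, had 48.4, 49.2, 46.2 and 41.2 CPM in knockout samples, against 67.7, 71.8, 70.6 and 67.1 CPM in wild-type samples. MRPL21 (bL21m) had 28.1, 30.7, 27.3 and 29.3 CPM in knockout samples, against 39.3, 38.1, 41.1 and 40.8 CPM in wild-type samples. Neither gene had overlapping groups, and their log2 changes were -0.58 and -0.47 (edgeR adjusted p = 1.43e-08 and 3.12e-07). MRPL23 (uL23m) was measured at low depth, with 5.96, 4.53, 5.41 and 4.66 CPM in knockout samples, against 7.50, 6.89, 7.63 and 6.60 CPM in wild-type samples. MRPS17 (uS17m), an RNA-binding protein of the small subunit body, had 4.08, 4.02, 3.91 and 3.65 CPM in knockout samples, against 5.59, 5.21, 5.58 and 5.19 CPM in wild-type samples. Both groups stayed apart at these low levels, with log2 changes of -0.48 for MRPL23 and -0.46 for MRPS17 (SE 0.10 each, edgeR adjusted p = 0.000648 and 0.00055). NIPSNAP2 and a second gene on the same strand cover 27.0% of the exonic length of MRPS17.

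Another 15 genes fell by less. MRPL54 had 19.0 ± 0.976 CPM in knockout and 24.4 ± 1.65 CPM in wild-type samples and a log2 change of -0.36, and MRPL50 (mL50) had 22.6 ± 1.11 CPM in knockout and 27.6 ± 1.39 CPM in wild-type samples and a change of -0.29. MRPL35 (bL35m) had 68.1 ± 2.87 CPM in knockout and 82.5 ± 5.86 CPM in wild-type samples, with a change of -0.28, and MRPL28 (bL28m) had 37.5 to 41.0 CPM in knockout and 46.7 to 48.5 CPM in wild-type samples, with a change of -0.26. In all of these the groups stayed apart. MRPL3 (uL3m), a core protein that reaches toward the peptidyl transferase centre, had 113 ± 3.91 CPM in knockout and 132 ± 13.3 CPM in wild-type samples, where replicate 3 stood at 152 CPM. Its log2 change was -0.23, and -0.15 without that sample (edgeR adjusted p = 0.00375). The changes of MRPL20 (bL20m) and MRPL17 (bL17m) were -0.23 and -0.22. MRPS27 (mS27), which binds RNA in the small subunit, had the highest CPM of them, with 152 ± 2.97 CPM in knockout and 180.5 ± 8.48 CPM in wild-type samples and a change of -0.25. Per length it was not the highest, with 81.1 TPM over the 8 samples against 143 TPM for MRPL3 and 147 TPM for MRPL45. The smallest falls were those of MRPS30 (-0.19), MRPS7 (-0.19), MRPL9 (-0.14) and MRPS22 (-0.13). The call of MRPL9 was lost without knockout replicate 2, 3 or 5 or wild-type replicate 3 (edgeR adjusted p from 0.0542 to 0.0891 without them). That of MRPS22 was lost without any 1 of 7 samples, wild-type replicate 5 being the exception (edgeR adjusted p from 0.0632 to 0.173), and with DESeq2. Both calls were also lost with library totals, with upper-quartile scaling and with the stricter filter of a mean log2 CPM of at least 1. The call of MRPS30 was lost with library totals, with upper-quartile scaling and when set against its neighbours on the chromosome, and that of MRPS7 with upper-quartile scaling. MRPL12, MRPL13 and MRPL45, the remaining falls, are described with their place in the particle or on the chromosome.

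The 39 genes that did not pass had log2 changes from -0.31 for MRPS24 to 0.12 for MRPL24. The closest to the threshold was MRPL47 (uL29m), at the tunnel exit, with 75.4, 77.6, 74.9 and 75.1 CPM in knockout samples, against 79.4, 80.8, 85.8 and 80.4 CPM in wild-type samples. These groups did not overlap, yet the log2 change of -0.11 missed the threshold (edgeR adjusted p = 0.0501). It was called lower when equally numbered samples were blocked (adjusted p = 0.0276), with DESeq2 (adjusted p = 0.0447), relative to its neighbours (adjusted p = 0.0141) and without wild-type replicate 1 (adjusted p = 0.0494). Without any other single sample its adjusted p ran from 0.0557 to 0.1225. Genes with high CPM but without a call included MRPL42 (127 ± 7.58 CPM in knockout and 132 ± 4.60 CPM in wild-type samples), MRPL37 (117 ± 2.61 CPM in knockout and 118 ± 8.52 CPM in wild-type samples) and MRPL19 (109 ± 9.55 CPM in knockout and 107 ± 5.85 CPM in wild-type samples). Per length, MRPL42 had only 25.2 TPM over the 8 samples, below the 57.8 TPM of the median gene. MRPL58, which frees peptides from stalled particles, had 35.0 ± 1.11 CPM in knockout and 36.2 ± 4.25 CPM in wild-type samples (log2 change -0.05, and 0.03 without wild-type replicate 3). The groups of these 4 genes overlapped. Leaving out wild-type replicate 3 brought MRPL24 (0.18) and MRPL52 (0.11) past the threshold as higher (edgeR adjusted p = 0.00215 and 0.0297). Blocking equally numbered samples added, beside MRPL47, the calls of MRPL14 (-0.11) and MRPL30 (-0.12) as lower and of MRPL24 (0.12) as higher (adjusted p = 0.0274, 0.0373 and 0.0378) and removed 0.

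The largest rise was that of MRPL51 (mL51, ENSG00000111639, chr12:6491886-6493841, minus strand), a mitochondrion-specific protein of the large subunit and the most abundant mitoribosome transcript in knockout samples. It had 129, 134, 126 and 118 CPM in knockout replicates 1, 2, 3 and 5, against 90.4, 93.3, 95.6 and 89.6 CPM in wild-type replicates 1, 2, 3 and 5. MRPL18 (uL18m, ENSG00000112110, chr6:159789812-159798436, plus strand), a protein of the central protuberance, had 99.2, 99.9, 96.0 and 89.7 CPM in knockout samples, against 76.0, 74.6, 81.9 and 76.0 CPM in wild-type samples. For both genes every knockout value was above every wild-type value. The log2 changes were 0.46 (SE 0.05, edgeR adjusted p = 6e-08) for MRPL51 and 0.32 (SE 0.05, edgeR adjusted p = 1.19e-05) for MRPL18. On the opposite strand, exons of NCAPD2 cover 31.3% of the exonic length of MRPL51.

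Further rises were smaller. MRPS11 (uS11m), on the platform of the small subunit, had 77.5, 73.3, 73.9 and 69.2 CPM in knockout samples, against 62.7, 62.1, 64.8 and 55.5 CPM in wild-type samples. MRPL33 (bL33m) had 31.6, 34.8, 34.0 and 33.9 CPM in knockout samples, against 27.2, 27.5, 29.8 and 28.7 CPM in wild-type samples. These 2 genes had no overlap between groups and rose by 0.26 and 0.25 on the log2 scale (edgeR adjusted p = 0.000309 and 0.000737), with 21.1% of the exonic length of MRPL33 under exons of BABAM2 on the same strand. MRPS33 (mS33), a mitochondrion-specific protein of the small subunit, had 23.0, 24.9, 22.4 and 20.3 CPM in knockout samples, against 18.5, 19.7, 20.8 and 17.4 CPM in wild-type samples. MRPL40 (mL40), in the central protuberance, had 35.3, 35.8, 31.3 and 31.1 CPM in knockout samples, against 28.1, 27.8, 33.2 and 24.0 CPM in wild-type samples. In both genes the groups overlapped through wild-type replicate 3, the highest of its group. The log2 changes were 0.25 for MRPS33 and 0.24 for MRPL40 (edgeR adjusted p = 0.00628 and 0.0277), and the call of MRPL40 was lost without knockout replicate 1 or 2, or without wild-type replicate 1, 2 or 5 (adjusted p from 0.0634 to 0.0887). Without wild-type replicate 3 the change of MRPL40 was 0.33 (edgeR adjusted p = 0.000457).

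The remaining rises among the 10 largest stayed under 0.2 on the log2 scale. MRPS35 (mS35) had 85.2 to 88.5 CPM in knockout samples and 71.4 to 82.4 CPM in wild-type samples, without overlap, and its log2 change was 0.19 (edgeR adjusted p = 0.00231). MRPL2 (uL2m), a core protein of the peptidyl transferase region, had 28.3 to 29.8 CPM in knockout samples and 23.7 to 27.4 CPM in wild-type samples, also without overlap. MRPS16 (bS16m) had 168 to 184 CPM in knockout samples and 148 to 173 CPM in wild-type samples, and MRPL41 (mL41) had 27.3 to 31.1 CPM in knockout samples and 25.05 to 29.05 CPM in wild-type samples. The groups of MRPS16 and MRPL41 overlapped. Log2 changes were 0.17 for MRPL2, 0.17 for MRPS16 and 0.16 for MRPL41 (edgeR adjusted p = 0.0185, 0.0106 and 0.0365). Each of these 3 calls was lost without at least one sample. For MRPL2 these were knockout replicate 2 and wild-type replicates 2 and 5, and for MRPS16 wild-type replicate 5. For MRPL41 they were knockout replicates 1, 2 and 3 and wild-type replicates 2 and 5, and adjusted p reached 0.131.

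**Figure D2:**
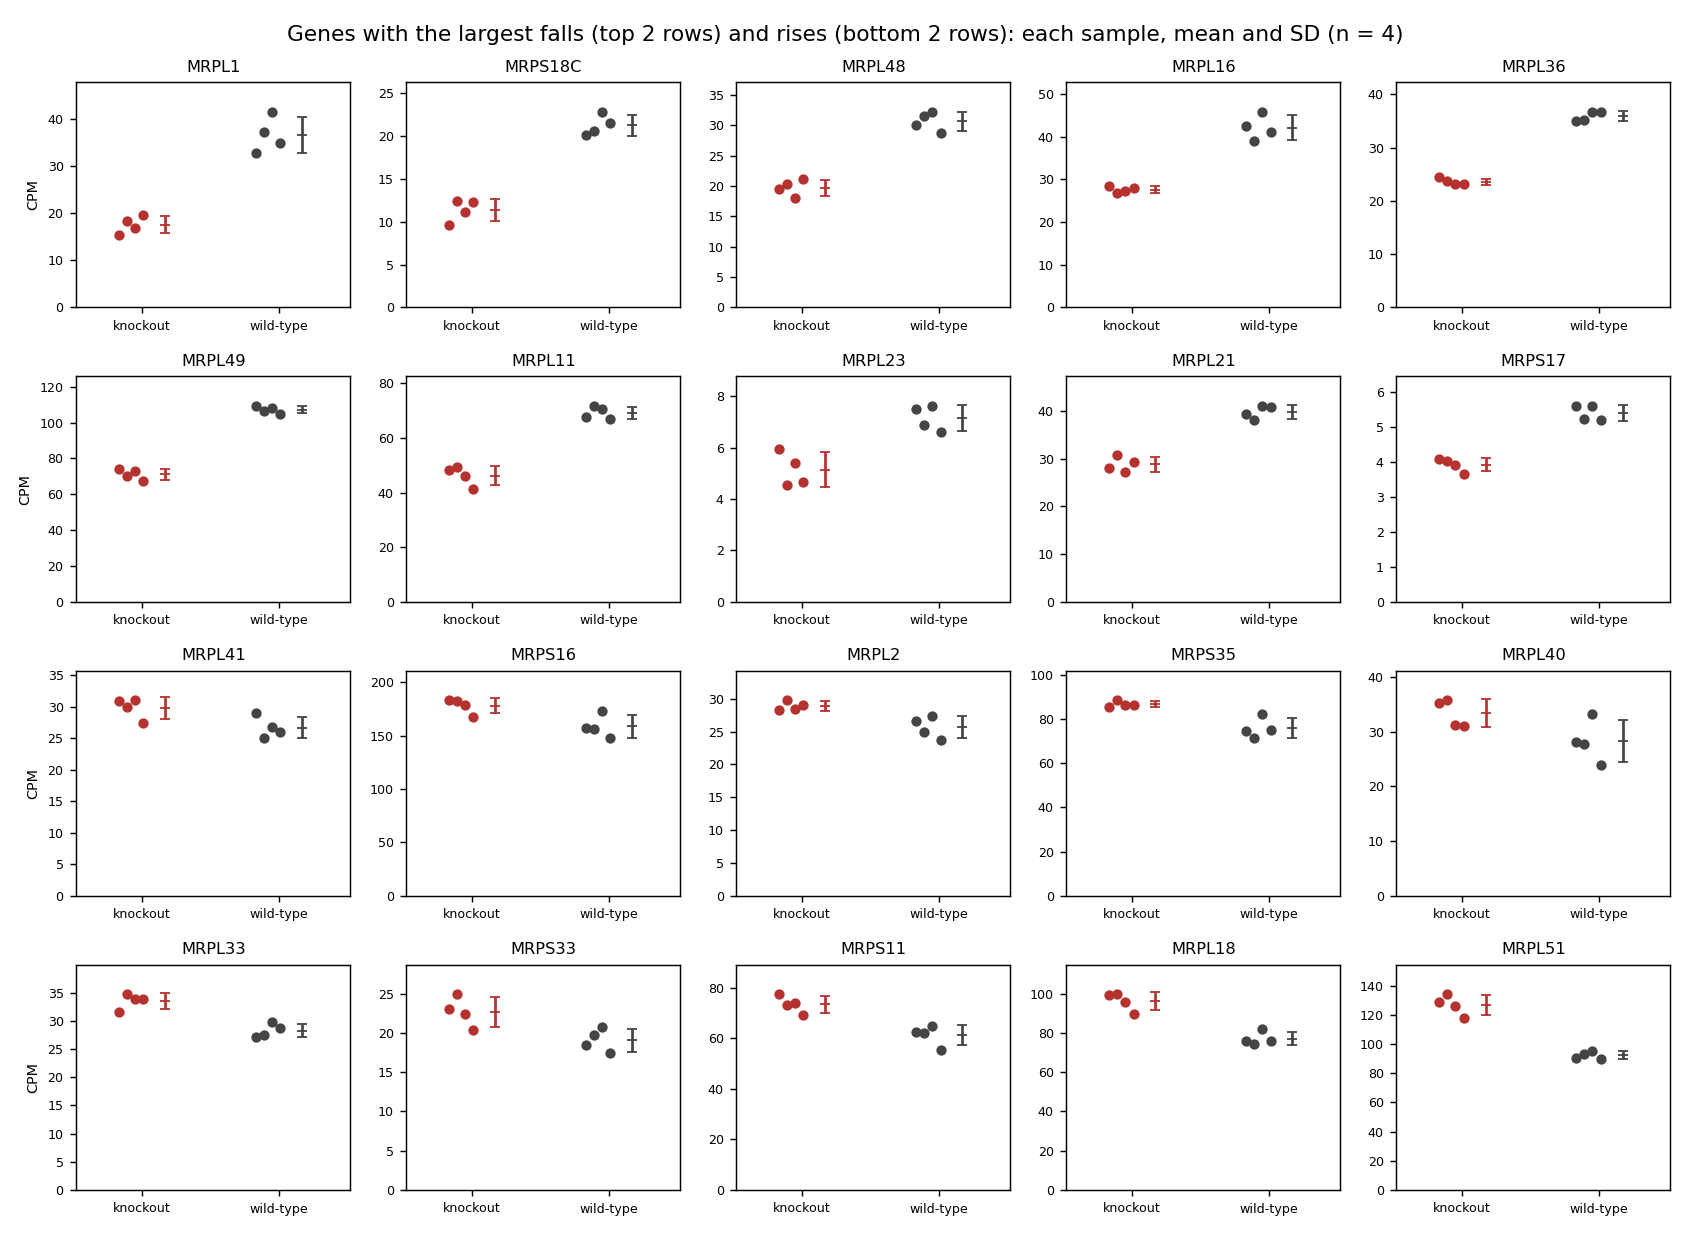
CPM (vertical axis, from 0) of each sample for the 10 genes with the largest falls (top rows) and the 10 with the largest rises (bottom rows), knockout left and wild-type right, with the mean and SD beside the points (n = 4 each). The groups are apart in all 10 genes that fell, while among the genes that rose they overlap in MRPL41, MRPS16, MRPL40 and MRPS33.

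Promoters were read for motifs of the regulators best known at nuclear genes for mitochondrial proteins. Of these 20 genes MRPL2, MRPL21 and MRPL23 had no promoter in the RefSeq table and were not read. The ETS core CCGGAAG is the site of GABPA, and CACGTG is the E-box bound by MYC and the Mondo proteins. The YY1 motif reads AAN, ATGGC and GGC run together. The NRF1 motif is GCGC, AT and GCGC run together, and its looser form allows any bases in place of AT. Each was searched on both strands from 250 bases before to 50 after the annotated starts. The strict NRF1 motif is contained in the looser one, and an ETS core and its reverse CTTCCGG can share letters. The following sequences, from RefSeq on GRCh38.p14 and written along the gene's own strand, show how the matches look in the genes with the largest changes, with the match in capitals.
MRPL1, YY1, chr4:77862837-77862866, plus strand: ggagtgcccAACATGGCGGCggccgtaagg
MRPL36, YY1, chr5:1799855-1799884, minus strand: cccccccccGCCGCCATCTTccttcctggc
MRPS18C, ETS, chr4:83455825-83455854, plus strand: gggctcgcggaCCGGAAGcacgcataaact
MRPL48, ETS, chr11:73787800-73787829, plus strand: aatttcagaagCTTCCGGaactaaaatgat
MRPL16, ETS, chr11:59810766-59810795, minus strand: agtgaacacaaCTTCCGGccccactgagcg
MRPS16, ETS, chr10:73252621-73252650, minus strand: cggatcatccgCTTCCGGagtcgaggtttt
MRPL40, ETS, chr22:19432523-19432552, plus strand: ggggcgcacgcCCGGAAGcggcgagggtag
MRPL33, ETS, chr2:27771700-27771729, plus strand: cgggccgtgccCCGGAAGcagttgttgttg
MRPS33, ETS, chr7:141014934-141014963, minus strand: agagggcgggcCTTCCGGgacgagggcgcg
MRPL18, ETS, chr6:159790430-159790459, plus strand: gggacttgctaCTTCCGGgtcggtggcgtc
MRPL51, ETS, chr12:6493348-6493377, minus strand: cggcaggcggaCCGGAAGcactgaggcggg

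Genes that rose and genes that fell both held the ETS core. Of 69 mitoribosome genes with a promoter in the RefSeq table, 30 (43.5%) had it, against 12.2% of 27305 genes and 21.6% of 10819 tested protein-coding genes in the same windows. The YY1 motif was in 14 (20.3%), against 1.76% of all genes and 3.71% of tested protein-coding genes. In every gene that carries it except MRPL36, the match lay after the annotated start. The E-box was in 9 (13.04%), against 8.78% of all genes and 12.2% of tested protein-coding genes. The looser NRF1 motif was in 10 (14.5%), against 9.98% of all genes but 17.9% of tested protein-coding genes, and the strict one in 1 (1.45%), against 1.52% and 2.54%. A match is a run of letters and not a measured binding site. Among 29 tested genes with the ETS core, 7 rose and 8 fell, with a median log2 change of 0.01. Among 39 tested genes without it, 5 rose and 13 fell, with a median of -0.07. Of the 14 with the YY1 motif 1 rose and 5 fell (median -0.09), and of the 9 with the E-box 1 rose and 4 fell (median -0.11). The genes without the E-box counted 11 rises and 17 falls of 59, with a median of -0.06.

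Most falls lay in the large subunit, which also holds most of the tested genes. Of its 51 genes 50 were tested, 20 fell, 6 rose and the median log2 change was -0.11. Outside chromosomes 4 and 11, described below, 12 of its 42 tested genes fell (28.6%) and 6 rose (14.3%). Among all tested protein-coding genes, those chromosomes included, 29.2% were lower and 27.5% higher. The share that fell outside them was thus close to this background. Of the 26 small-subunit genes 5 fell (19.2%), 7 rose (26.9%) and the median was -0.02. MRPS36, now known as KGD4, a subunit of the alpha-ketoglutarate dehydrogenase complex, was counted in neither. It had 20.3 ± 1.22 CPM in knockout and 21.7 ± 0.798 CPM in wild-type samples, and its log2 change of -0.09 did not pass (edgeR adjusted p = 0.218). In knockout replicates 1, 2, 3 and 5 the median large-subunit gene stood at -0.11, -0.10, -0.10 and -0.12 relative to the wild-type mean (log2 CPM), against -0.02, -0.03, 0.09 and -0.04 in wild-type replicates 1, 2, 3 and 5. The knockout values were below all wild-type values. The median small-subunit gene stood at -0.02, -0.00, -0.03 and -0.06 in knockout samples, against 0.00, -0.03, 0.09 and -0.06 in wild-type samples, and these groups overlapped. The large median minus the small one was -0.09, -0.09, -0.07 and -0.05 in knockout samples, against -0.02, -0.01, -0.00 and 0.02 in wild-type samples.

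**Figure D3:**
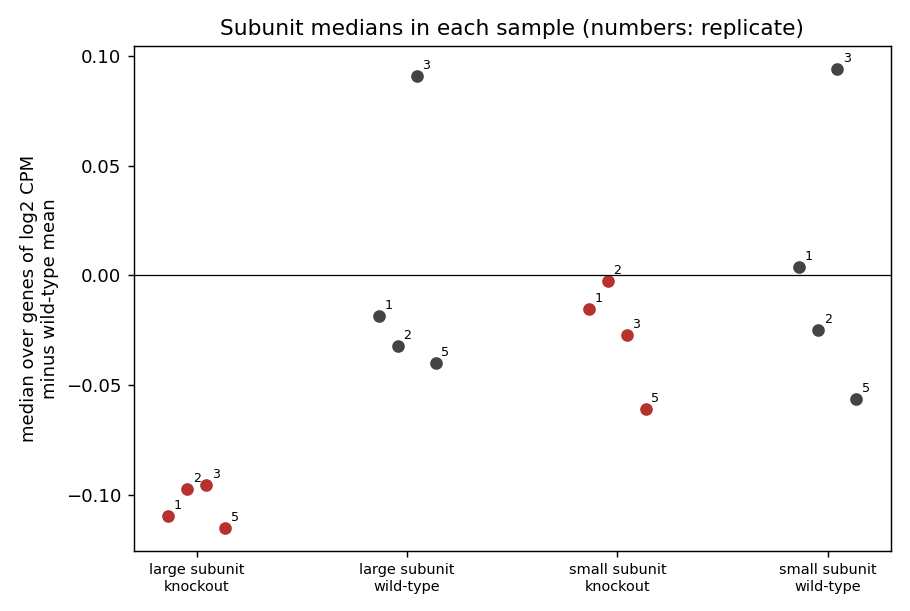
Each point is 1 sample, placed at the median over the genes of a subunit of log2 CPM minus the gene's wild-type mean (vertical axis), knockout left of wild-type for each subunit, with the replicate number beside it. Knockout samples lie below all wild-type samples for the large subunit. For the small subunit the groups overlap, with knockout replicate 5 the lowest sample. Wild-type replicate 3 is the highest sample in both subunits.

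The subunit medians depended on scaling and on wild-type replicate 3. Scaling by library totals put the medians at -0.04 for the large and 0.05 for the small subunit, a change of sign for the small one. Without wild-type replicate 3 they were -0.06 and 0.02. The difference between them was -0.09 as fitted and -0.08 without wild-type replicate 3. With library totals it was -0.09, but a change of scaling shifts all genes by nearly the same amount and cannot move it. Genes of a subunit are not replicates, and the difference between subunits was not tested. Summed over genes, large-subunit transcripts came to 2458 ± 36.4 CPM in knockout and 2663 ± 121 CPM in wild-type samples, and small-subunit transcripts to 1490 ± 26.6 CPM in knockout and 1485 ± 71.0 CPM in wild-type samples (SD, n = 4 each). In TPM the same sums were 3646 ± 31.7 in knockout and 3657 ± 78.2 in wild-type samples for the large subunit, and 1849 ± 20.8 in knockout and 1708 ± 30.7 in wild-type samples for the small subunit. The direction of the total therefore depended on the scale, with 3968 ± 58.7 CPM in knockout and 4170 ± 191 CPM in wild-type samples, but 5539 ± 48.8 TPM in knockout and 5409 ± 107 TPM in wild-type samples. Without wild-type replicate 3 the wild-type totals were 4075 ± 31.5 CPM and 5362 ± 65.1 TPM (SD, n = 3). The small-subunit sum in wild-type samples was then 1451 ± 24.5 CPM, and the large-subunit sum in TPM, 3624 ± 53.2, was below that of the knockout samples.

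Proteins with a bacterial counterpart and mitochondrion-specific ones were also set side by side. Of 45 genes with a bacterial counterpart 17 fell (37.8%) and 6 rose (13.3%), with a median of -0.11. Of 31 tested mitochondrion-specific genes 8 fell (25.8%) and 7 rose (22.6%), with a median of -0.02. Beside these stand 29.2% lower and 27.5% higher among tested protein-coding genes. The classes include the genes on chromosomes 4 and 11, all of which fell. In the large subunit 14 of 29 genes with a bacterial counterpart fell and 3 rose, with a median of -0.12. The mitochondrion-specific genes of the small subunit lay at the other end, with 4 rises and 2 falls among 10 and a median of 0.05. With wild-type replicate 3 left out, the median was -0.06 for genes with a bacterial counterpart, -0.10 for those of the large subunit, and 0.10 for the mitochondrion-specific genes of the small subunit. The median of all mitochondrion-specific genes, MRPS36 included, was then 0.02, a change of sign. The 4 rises were those of MRPS33, MRPS35, MRPS25 and MRPS18B, and the 2 falls were those of MRPS27 (-0.25) and MRPS22 (-0.13). The call of MRPS25 was lost without knockout replicate 1 or 3 or wild-type replicate 2 or 5 (edgeR adjusted p from 0.0530 to 0.127), and that of MRPS22 without any sample but wild-type replicate 5 (from 0.0632 to 0.173).

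By place in the particle, the stalk that binds elongation factors had the lowest median, -0.31 over 4 tested genes. There MRPL11 (-0.58), MRPL54 (mL54, -0.36) and MRPL12 (bL12m, the flexible factor-binding arm, -0.25) fell, while MRPL10 (uL10m, which anchors it) had a log2 change of -0.02 and did not pass. For MRPL12, 68.2% of the exonic length lies under exons of another gene on the same strand. Around the peptide exit tunnel 2 of 7 genes fell and 0 rose (median -0.11). They were MRPL23 and MRPL45 (mL45), which tethers the particle to the inner membrane. The central protuberance, at the top of the large subunit, held changes in both directions, with rises of MRPL18 and MRPL40 and a fall of MRPL48 among 5 genes (median 0.09). In the peptidyl transferase region MRPL16 and MRPL3 fell, MRPL2 rose and 3 genes did not pass. Of 4 genes at the mRNA entry and decoding sites MRPS12 (uS12m, in the decoding centre) rose by 0.14 and the others did not pass. The call of MRPS12 was kept only when knockout replicate 5 or wild-type replicate 3 was the sample left out (edgeR adjusted p from 0.0514 to 0.135 otherwise). When wild-type replicate 3 was left out the medians were -0.26 for the stalk, -0.08 for the exit tunnel and 0.14 for the central protuberance. The background of tested protein-coding genes, 29.2% lower and 27.5% higher, applies here too. The sites hold few genes each, and differences between them were not tested.

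Many of the largest falls lay on chromosomes 4 and 11. All 7 mitoribosome genes on chromosome 11 fell (MRPL48, MRPL16, MRPL49, MRPL11, MRPL23, MRPL21 and MRPL17), with a median log2 change of -0.58, and so did both on chromosome 4 (MRPL1 and MRPS18C). On the same chromosomes 444 of 777 tested protein-coding genes of chromosome 11 were lower, with a median of -0.28, and 320 of 493 of chromosome 4, with a median of -0.65. Outside these chromosomes 68 mitoribosome genes were tested, 13 rose, 16 fell (23.5%) and the median was -0.05. There the large subunit had 12 falls (28.6%) and 6 rises among 42 genes (median -0.07), and the small subunit 4 falls and 7 rises among 25 (median 0.01). The rises were 14.3% of these large-subunit genes. Of all tested protein-coding genes 29.2% were lower and 27.5% higher, but that background still includes chromosomes 4 and 11. Without wild-type replicate 3 as well, 15 of the 68 mitoribosome genes rose, 14 fell and the median was -0.01.

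For each gene the median log2 change of the 20 tested genes on either side was taken as its neighbourhood. Over the 77 genes the change of the gene and that of its neighbourhood had a Pearson correlation of 0.82, and over the 68 outside chromosomes 4 and 11 it was 0.57. The values without wild-type replicate 3 were 0.81 and 0.55. Over 13393 tested protein-coding genes it was 0.28. These points share the same 8 libraries, and genes close together share neighbours. All 10 genes with a neighbourhood median below -0.25 fell. They were MRPL36 and the genes of chromosomes 4 and 11 named above. How many of all tested genes in such neighbourhoods fell was not counted. MRPL1 lay among neighbours with a median of -0.81, MRPS18C among -0.77, MRPL11 among -0.48, MRPL36 among -0.46 and MRPL21 among -0.44. Of the 10 largest rises, MRPL51, MRPL18 and MRPS35 had raised neighbourhoods, at 0.44, 0.25 and 0.27. Those of MRPS11 and MRPL33 stood at 0.15 and 0.10, and those of MRPS33, MRPL40, MRPL2, MRPL41 and MRPS16 lay between -0.03 and 0.04.

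**Figure D4:**
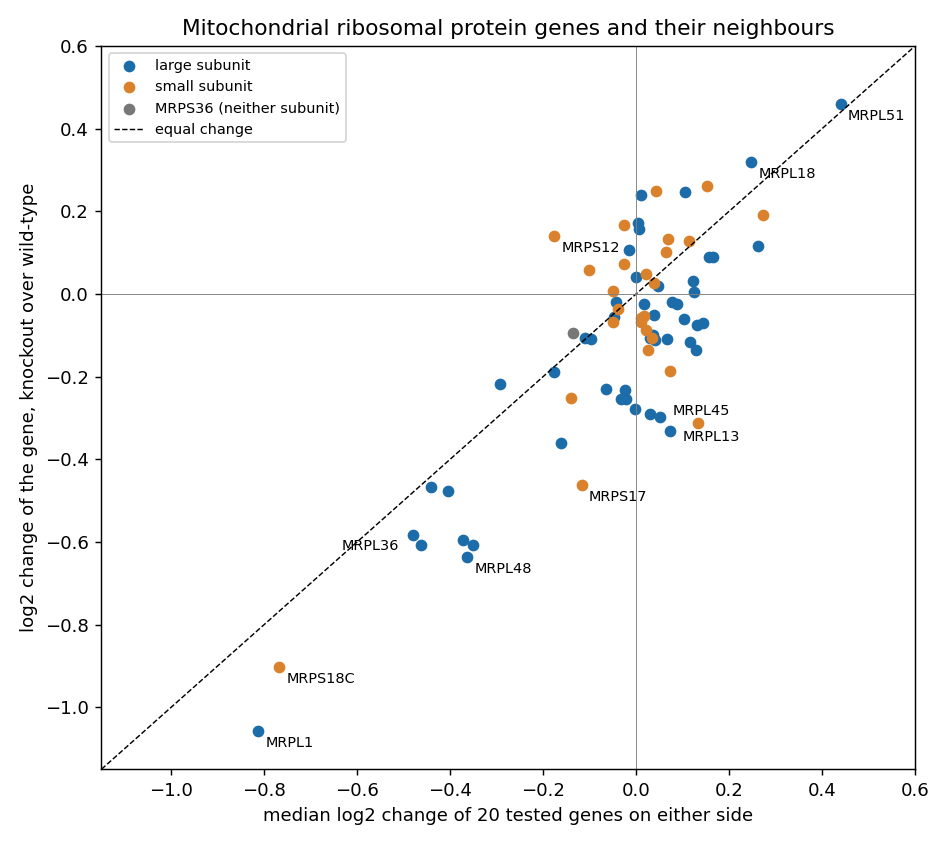
Each point is a tested mitochondrial ribosomal protein gene, with the median log2 change of the 20 tested genes on either side on the horizontal axis and its own log2 change (knockout over wild-type) on the vertical axis; the dashed line marks equal change. MRPL1 and MRPS18C sit at the lower left near the line and MRPL51 at the upper right, while MRPL13, MRPL45 and MRPS17 lie below it and MRPS12 above.

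A second fit tested each gene against its neighbourhood. Relative to their neighbours 8 mitoribosome genes of 77 were higher and 29 lower, beside 22.3% higher and 22.6% lower (44.8% called) over all genes with neighbours. Protein-coding genes were called more often, with 3400 higher and 3740 lower among 13393 with neighbours. Of the 25 genes that fell, 18 were also lower than their neighbours and 7 were not. The 7 included MRPS18C (-0.13, edgeR adjusted p = 0.172), MRPL11 (-0.10, adjusted p = 0.137), MRPL23 (-0.07, adjusted p = 0.596) and MRPL21 (-0.03, adjusted p = 0.729). MRPL1 was still lower than its neighbours, by -0.24 (adjusted p = 0.0189), and so were MRPL48 (-0.27), MRPL16 (-0.26), MRPL49 (-0.22), MRPL36 (-0.14) and MRPS17 (-0.34). Of the 13 genes that rose, 7 were also higher than their neighbours and 6 were not. The 6 were MRPL51 (0.02, adjusted p = 0.761), MRPL18 (0.07), MRPS11 (0.11), MRPS25 (0.06), MRPS18B (0.01) and MRPS35, whose value turned to -0.08.

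Some genes changed where the median of their neighbours lay close to 0 or on the other side of it. MRPL13 (uL13m) had 48.1, 53.3, 47.0 and 45.8 CPM in knockout samples, against 60.0, 58.8, 64.5 and 60.9 CPM in wild-type samples, without overlap. It fell by 0.33 on the log2 scale while its neighbours had a median of 0.07, a difference of -0.40 (edgeR adjusted p = 2.68e-06). MRPL45 had 71.5, 71.9, 70.0 and 70.5 CPM in knockout samples, against 83.0, 87.8, 94.4 and 83.5 CPM in wild-type samples, again without overlap. Its log2 change was -0.30 among neighbours with a median of 0.05, a difference of -0.35 (edgeR adjusted p = 4.79e-06), and the counts of its copy MRPL45P2 came to 10.1% of its own. MRPL50 (-0.32), MRPL35 (-0.27), MRPL9 (-0.27), MRPS7 (-0.26), MRPL28 (-0.23) and MRPL12 (-0.22) were likewise lower than their neighbours. MRPS12 was the largest in the other direction, 0.32 above its neighbours (edgeR adjusted p = 4.37e-05), which had a median of -0.18. These genes were chosen after their values were seen. Another 11 genes were lower only in this fit, and 1, MRPS31, was higher only in it (0.16).

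Pairs of genes with starts close together on opposite strands gave a closer view of position. A mitoribosome gene and a protein-coding gene on the other strand had starts within 1000 bases of each other and pointed apart in 16 pairs, of which 15 had both genes tested. Both partners fell in 4 pairs. MRPS18C (-0.90) and HELQ, a DNA helicase (-0.78), start 76 bases apart, and MRPL36 (-0.61) and NDUFS6, a subunit of respiratory complex I (-0.55), start 34 bases apart. MRPL21 (-0.47) and the helicase gene IGHMBP2 (-0.48) are 7 bases apart, and MRPL54 (-0.36) and APBA3 (-0.18) are 965 bases apart. Both partners rose in 1 pair, MRPL41 (0.16) and PNPLA7 (1.36), which start 665 bases apart. With starts at most 500 bases apart, 13 tested pairs remained, of which 3 fell together and 0 rose together. In 10 pairs only one gene or neither passed, and 0 pairs were called in opposite directions in this fit. One of these 10 joins 2 mitoribosome genes, MRPS11 (0.26, higher) and MRPL46 (0.09, adjusted p = 0.327), with 34 bases between their starts. In another, MRPL47 had a log2 change of -0.11 (edgeR adjusted p = 0.0501) while NDUFB5, also of complex I, rose by 0.16 from a start 36 bases away. In the fit that blocked equally numbered samples the 2 genes were called in opposite directions (adjusted p = 0.0276 and 0.00173), as they were with DESeq2, relative to neighbours and without wild-type replicate 1. MRPL50 and ZNF189 were the opposite pair with library totals, with upper-quartile scaling, with the stricter filter on low counts and without knockout replicate 1. Relative to neighbours 0 pairs fell together, and without wild-type replicate 3 there were 3 that rose together. The difference between the partners of a pair was not tested.

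Shared sequence limits some of these counts. Exons of another gene cover more than 20% of the exonic length of 14 of the 78 genes, on the same strand for 7 and on the opposite strand for 7. Pseudogene copies of 36 genes have 80 rows in the table, and 45 of those rows had 0 counts. Copies reached more than 10% of the counts of 3 genes. MRPS36P1 held 18.5% of the count of MRPS36, MRPL45P2 10.1% of that of MRPL45, and MRPS31P4 and MRPS31P5 held 7.49% and 6.64% of that of MRPS31. For MRPS18C the copy MRPS18CP7 held 4.03%. How reads with several matches were counted is not given in the sources used here.

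Mitoribosomal proteins with symbols outside the MRPL and MRPS series were set beside them. Of 5 tested, 3 fell and 0 rose, with a median of -0.12, beside the 29.2% lower and 27.5% higher of all tested protein-coding genes. PTCD3 (mS39), which helps to receive mRNA at the small subunit, had 154 ± 1.89 CPM in knockout and 187 ± 5.84 CPM in wild-type samples and a log2 change of -0.29 (edgeR adjusted p = 1.18e-05). DAP3 (mS29), a GTP-binding protein of the small subunit, fell by 0.12 (adjusted p = 0.0366), and GADD45GIP1 (mL64) fell by 0.14 (adjusted p = 0.0499). With library totals neither passed (adjusted p = 0.246 and 0.236), nor with upper-quartile scaling or the stricter filter on low counts. DAP3 did not pass relative to its neighbours (adjusted p = 0.0848) and GADD45GIP1 not with DESeq2 (adjusted p = 0.0679). The call of DAP3 was lost without knockout replicate 2, 3 or 5 or wild-type replicate 1 or 3 (adjusted p from 0.0563 to 0.101), and that of GADD45GIP1 without any knockout sample or wild-type replicate 1 or 3 (from 0.0512 to 0.216). CHCHD1 and AURKAIP1, also small-subunit proteins, had log2 changes of -0.04 and -0.07 and did not pass, though CHCHD1 was lower than its neighbours by -0.19 (adjusted p = 0.0253).

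Assembly factors and rRNA-modifying enzymes, which build the particle, had a similar median, -0.11 over 28 genes, but wider changes, with 13 falls (46.4%) and 6 rises (21.4%). Of all tested protein-coding genes 29.2% were lower and 27.5% higher. Among the falls, NOA1, DHX30 and DDX28 had neighbours with medians of -0.715, -0.56 and -0.30. METTL15, which methylates the small-subunit rRNA, had 8.89 ± 0.904 CPM in knockout and 20.5 ± 1.03 CPM in wild-type samples. Its log2 change of -1.20 (edgeR adjusted p = 4.22e-11) exceeded that of every mitoribosome gene, and its neighbours had a median of -0.18. GRSF1, an RNA-binding protein of mitochondrial RNA granules, had 82.2 ± 7.20 CPM in knockout and 149 ± 5.00 CPM in wild-type samples. It fell by 0.86 (edgeR adjusted p = 4.14e-11) among neighbours on chromosome 4 with a median of -0.21. YBEY, an endonuclease that acts on small-subunit rRNA, rose by 0.40 (adjusted p = 0.000264), and RPUSD3, a pseudouridine synthase, rose by 0.18 (adjusted p = 0.00513). Relative to its neighbours RPUSD3 stood at 0.11 and did not pass (adjusted p = 0.0687).

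Among 14 translation factors 4 fell and 1 rose (median -0.10), and the share that fell, 28.6%, was close to that of protein-coding genes. MTRFR, which rescues stalled mitoribosomes, fell by 0.43 (edgeR adjusted p = 2.2e-06), and GFM1, the elongation factor for translocation, fell by 0.28 (adjusted p = 0.000138). MTIF2, the initiation factor, rose by 0.17 (adjusted p = 0.0269), but its value relative to its neighbours was -0.04 and the call was lost without knockout replicate 1, 2 or 3 or wild-type replicate 1, 2 or 5 (adjusted p from 0.0537 to 0.104). TUFM, the elongation factor that delivers tRNA, had a log2 change of -0.04 and did not pass, though relative to its neighbours it was lower by -0.14 (adjusted p = 0.0269). Of 10 genes of mitochondrial transcription and RNA handling 4 fell and 0 rose (median -0.09). They included TFAM, which packages and transcribes the mitochondrial genome (-0.19, adjusted p = 0.00203), and the RNA helicase SUPV3L1 (-0.18, adjusted p = 0.00329). POLRMT, the mitochondrial RNA polymerase, had a log2 change of -0.09 and did not pass.

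Of 8 nuclear regulators of genes for mitochondrial proteins 5 fell (62.5%) and 1 rose, with a median of -0.20. Of tested protein-coding genes 29.2% were lower and 27.5% higher. Factors for the ETS, NRF1 and YY1 motifs were among the 8 regulators, while those for the E-box were not in the list. GABPA and its partner GABPB1, which bind the ETS core, fell by 0.23 and 0.34 (edgeR adjusted p = 0.00408 and 8.73e-05), NRF1 fell by 0.20 (adjusted p = 0.00797) and YY1, at -0.08, did not pass. The calls of GABPA and NRF1 were lost relative to their neighbours, and that of NRF1 also with library totals (adjusted p = 0.0514) and upper-quartile scaling (adjusted p = 0.0608). GABPB1 stood further below its neighbours, by -0.54 (adjusted p = 4.63e-07). ESRRA, a nuclear receptor that works with PGC-1 coactivators, fell by 0.20 (adjusted p = 0.00253) but stood 0.20 above its neighbours on chromosome 11, which had a median of -0.40. The coactivator PPRC1 had a log2 change of -0.07 and did not pass. PPARGC1A, the coactivator PGC-1 alpha, was the only regulator of the 8 that rose. It had 11.2 ± 0.800 CPM in knockout and 4.64 ± 0.990 CPM in wild-type samples (SD, n = 4 each), without overlap, a log2 change of 1.27 (edgeR adjusted p = 1.71e-08) among neighbours with a median of 0.10.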

How the data were processed

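RNA-seq of 8 MDA-MB-231 samples (rRNA-depleted total RNA, stranded kit, Illumina NextSeq, per the labels' protocols) was used. The authors deposited whole-number counts per gene, and the submitters' processing notes list hg38, FastQC 0.11.7, DESeq2 1.23.10, Subread 1.6.2, STAR 2.6.0c and featureCounts, with no roles. Strand setting, annotation and the treatment of reads with several matches are not given in the sources used here. A deposited variance-stabilised table was not used. Of 60646 rows 58459 matched GENCODE 29, which gave coordinates and exon lengths.

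Counts were fitted in R 4.3.3 with edgeR 4.0.16 (filterByExpr, TMM scaling, robust quasi-likelihood, group as the single term), with Benjamini-Hochberg adjustment over all tested genes and a threshold of 0.05. Every adjusted p comes from that test unless DESeq2 or another alternative setting is named with it. SE is the size of the log2 change over the square root of the test's F statistic. CPM used TMM library sizes. The log2 CPM behind the correlations between samples had a prior count of 2, and the subunit medians per sample used no prior count. One count stood for 0.0198 to 0.0250 CPM, and counting precision covers counting error only. The neighbour fit entered the median log2 change of 20 tested genes on either side as a known offset. The procedure was tested on simulated data. Promoter windows came from RefSeq (GRCh38.p14), 85 windows for 69 of the 78 genes.

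The genes and lists were chosen with earlier results of these data known. Values per sample were given for up to 10 rises and 10 falls, the 3 highest and 3 lowest genes in TPM, the MRPS18 genes and MRPS36. In related lists the smallest adjusted p values (up to 2 per direction) and a few set names were given. Every mitoribosome gene may be named.

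The labels number the replicates of either group 1, 2, 3 and 5. Samples with equal numbers deviated from their group means together, with correlations of 0.376, 0.154, 0.153 and 0.391 over 13212 genes, against -0.301 to 0.0596 for unequal numbers. The best correlation was with the equal number for 8 of 8 samples. The numbers were therefore taken to pair the samples, from the data and shared labels. The reported fit left this pairing out, and only the replicate block, an alternative, used it. No replicates were alike within sampling noise (chi-square per degree of freedom 3.68 to 20.5). Alternatives were library totals, upper-quartile scaling, DESeq2 1.42.0, no filter on low counts, a mean log2 CPM of at least 1, the replicate block, the neighbour offset and leaving out each sample.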

Additional observations from a re-analysis of the deposited data

Results flagged for a closer look

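In 96 groups of 4 samples (48 named genes, knockout and wild-type), 4 had a sample whose gap to the nearest other, divided by the range of the group, exceeded Dixon's critical value for groups of that size, and chance flags about 1 in 20 groups. MRPS10 had 143.4 CPM in wild-type replicate 3, against 129.7 to 131.1 CPM in the other wild-type samples. TFAM had 176.8 CPM in knockout replicate 1, against 189.2 to 191.8 CPM in the other knockout samples, and 226.7 CPM in wild-type replicate 3, against 208.3 to 209.7 CPM in the other wild-type samples. YBEY had 6.984 CPM in wild-type replicate 1, against 7.418 to 7.497 CPM in the other wild-type samples. MRPS10 and TFAM were both highest in wild-type replicate 3, the sample that held the top wild-type value for 60 of 77 mitoribosome genes, and its cause was not tested.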

How the results depend on the processing

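Of the 25 falls 15 were kept under every alternative and 23 whichever sample was left out, while of the 13 rises 2 and 6 were. Of these calls 0 turned to the opposite direction. Left-out samples gave 6 to 15 rises, 3 to 8 in the large and 3 to 7 in the small subunit. The median of the mitoribosome genes was -0.004774 with library totals and -0.001926 with upper-quartile scaling. Its distance from the median of all tested genes was -0.07 under each and in the reported fit. Either scaling shifts all genes by nearly the same amount, so it cannot move that distance. The distance was -0.15 with no filter on low counts and -0.04 with the stricter filter, which change the set of all tested genes. Left-out samples gave from -0.05 (wild-type replicate 3) to -0.11 (wild-type replicate 5). Upper-quartile scaling left 3 falls in the small subunit, no filter on low counts left 4 rises there, and the neighbour offset left 8 rises, 4 of them there. With either scaling higher calls made up 61.2% or 61.9% of all calls, against 50.3%. Among the 48 named genes signs turned with library totals and upper-quartile scaling for MRPS10 (0.01083 and 0.01324), CHCHD1 (0.02063 and 0.02327) and TUFM (0.02199 and 0.02403). They turned also for CHCHD1 without knockout replicate 5 (0.01144, other left-out samples down to -0.09243) and for TUFM without wild-type replicate 3 (0.01389, others down to -0.07298). Relative to neighbours they turned for MRPS35 (-0.08199), MRPS36 (0.04042), MTIF2 (-0.03801) and ESRRA (0.1963). None of these but ESRRA passed the test there, and the cause was not tested. Outside these 48 genes both scalings also turned MRPL10, MRPL37, MRPL42, MRPL43, MRPL44, MRPL57, MRPL58, MRPS2 and MRPS5, none of which passed. MRPL24 was higher with library totals (0.1808, edgeR adjusted p = 0.00645) and lower relative to its neighbours (-0.1447, adjusted p = 0.0407). With the replicate block 14 genes rose and 28 fell, and these counts moved by less than 1.5 times. For named genes 641 alternative values kept direction and call, 61 lost the call and 6 gained it. Genes with few counts (MRPL23, MRPS17 and MRPS24) have the widest errors, and MRPL53 could not be tested at this depth.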
